A study of Homo sapiens with 5 samples.

Results

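The genes described here encode the replisome around the MCM helicase: the origin recognition complex, the GINS complex, the replicative DNA polymerases α, δ and ε, the sliding clamp with its loaders, single-strand binding protein, the enzymes that finish the lagging strand, and factors that travel with the fork. The 47 genes were taken by symbol, and each was represented by its brightest bead array probe among those detected on at least 2 arrays. All 47 had such a probe, out of 12080 genes measured.

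Replication begins where the origin recognition complex marks the DNA and MCM helicases are loaded. The kinase of CDC7 and DBF4 and the arrival of GINS then turn the helicase on. Polymerase α with primase lays down the primers, the clamp loader sets PCNA on them, and polymerases δ and ε extend the strands. Transcripts for many of these proteins are known to peak as cells enter S phase, under the E2F transcription factors.

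RNA came from MDA-MB-231, a human breast cancer line in long use, basal in type and negative for estrogen receptor. Cultures received 10 µM fluvastatin for 24 h (2 samples) or sterile water for the same time as a mock control (3 samples). Fluvastatin is a statin, a drug that blocks cholesterol synthesis at the mevalonate step. Samples were grouped by title and treatment label, which name fluvastatin, although the protocol field of those samples describes water. The comparison asks which transcripts differ between treated and untreated malignant cells.

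Fluvastatin arrays 1 and 2 were compared with control arrays 1 and 3, since control column 2 held the mean of the other control columns in all 47231 probes. The share of probes detected was 46.9% and 44.9% on fluvastatin arrays 1 and 2, against 46.1% and 43.0% on control arrays 1 and 3. Across all genes the fluvastatin arrays lay a median of 0.24 apart on the log2 scale and the controls 0.11. The labels do not say whether the samples were separate cultures, so the p-values cover array-to-array spread, which may be technical. Of the markers of the labelled cell type, VIM, CD44 and EGFR were detected on all 4 arrays, and ESR1, PGR and FOXA1 on 0 of 4. The other luminal markers, ERBB2, GATA3 and KRT19, were detected on all 4 arrays. Of 8 stromal, endothelial and leukocyte markers, 3 were measured (COL1A1, PECAM1 and CD14), and COL3A1, DCN, CDH5, PTPRC and CD3E were detected on 0 arrays. The 6 markers listed for the cell line were VIM, CD44, EGFR, MSN and the keratins KRT8 and KRT18. In limma 0 of these 6 and 0 of the 3 measured stromal, endothelial and leukocyte markers passed (4 and 2 had an unadjusted p under 0.05). KRT8 was at 0.55 (adjusted p = 0.0650) and KRT18 at -0.62 (adjusted p = 0.0501). KRT19, a keratin of luminal cells, was higher by 1.35 ± 0.15 (adjusted p = 0.00964). The part of these markers in the results below was not tested.

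Most replication genes were lower after fluvastatin. Of the 47 genes, 26 fell, 1 rose and 20 did not pass the test (limma, adjusted p under 0.05 over all 21986 probes kept). Falls were called for 55.3% of these genes, while 9.65% of all 12080 genes were called lower, 10.5% higher and 20.1% either way. The genes were chosen with a fall of replication genes in these data already known. TIPIN, a fork protection factor, had the largest fall, to a level 3.87-fold lower than in controls, and POLD1, the catalytic subunit of polymerase δ, had the smallest called fall, 1.62-fold. The gene that rose was POLD4, the smallest subunit of the same polymerase, 4.63-fold higher.

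The median log2 fold change was -0.83 over the 47 genes and 0.01 over all genes measured. It was -0.72 in fluvastatin array 1 and -0.88 in array 2, each set against the mean of the controls. At least 2-fold falls were called for 19 genes (40.4%), against 4.35% of all genes. Both fluvastatin arrays lay below both controls for 40 genes, or 85.1%, where 33.7% of all genes did so. They lay above both controls for POLD4 and ORC6, where 35.9% of all genes did so. In the remaining 5 genes (DBF4, GINS1, POLD2, LIG1 and RNASEH2A) the groups overlapped. Because RNA was taken from whole cultures, fewer cells in S phase and less transcript per cell cannot be told apart.

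All 26 falls kept a negative sign under each of the 14 other processing settings tried. Many of those settings could hardly have changed a sign, so this is not separate support. In all 26 genes both fluvastatin arrays lay below both controls, and several settings reuse the same fold changes with another filter or variance. The calls rest on having both controls. Without control array 1 the count of falls was 2 (TIPIN and DSCC1), where 0.823% of all genes were called lower. Without control array 3 it was 3 (those and CHAF1B), where the share of all genes was 0.668%. With a control left out, the spread is estimated from the fluvastatin arrays alone. Without fluvastatin array 1 there were 28 falls and without array 2 there were 25, where 11.8% and 18.6% of all genes were called lower.

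Scaling the arrays on the median of all probes moved the median of all genes to 0.22, with 17.3% of genes called higher and 4.88% lower (78.0% of calls were higher, against 52.0% as reported). Of the 26 falls, 19 were still called there, and the median of the 47 genes was -0.82 relative to that shift. The 7 lost were ORC1, ORC2, PRIM2, POLD1, POLE2, POLE3 and RFC2. The test changed there too, since the prior degrees of freedom became infinite (3.72 as reported). Every probe was then given the same variance, so the calls kept and lost do not reflect scaling alone. Under that scaling the groups did not overlap, in either direction, in 30 of the 47 genes, against 42 as reported. The matching share of all genes was not taken there. Negative fold changes numbered 39, against 44 as reported.

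**Figure D1:**
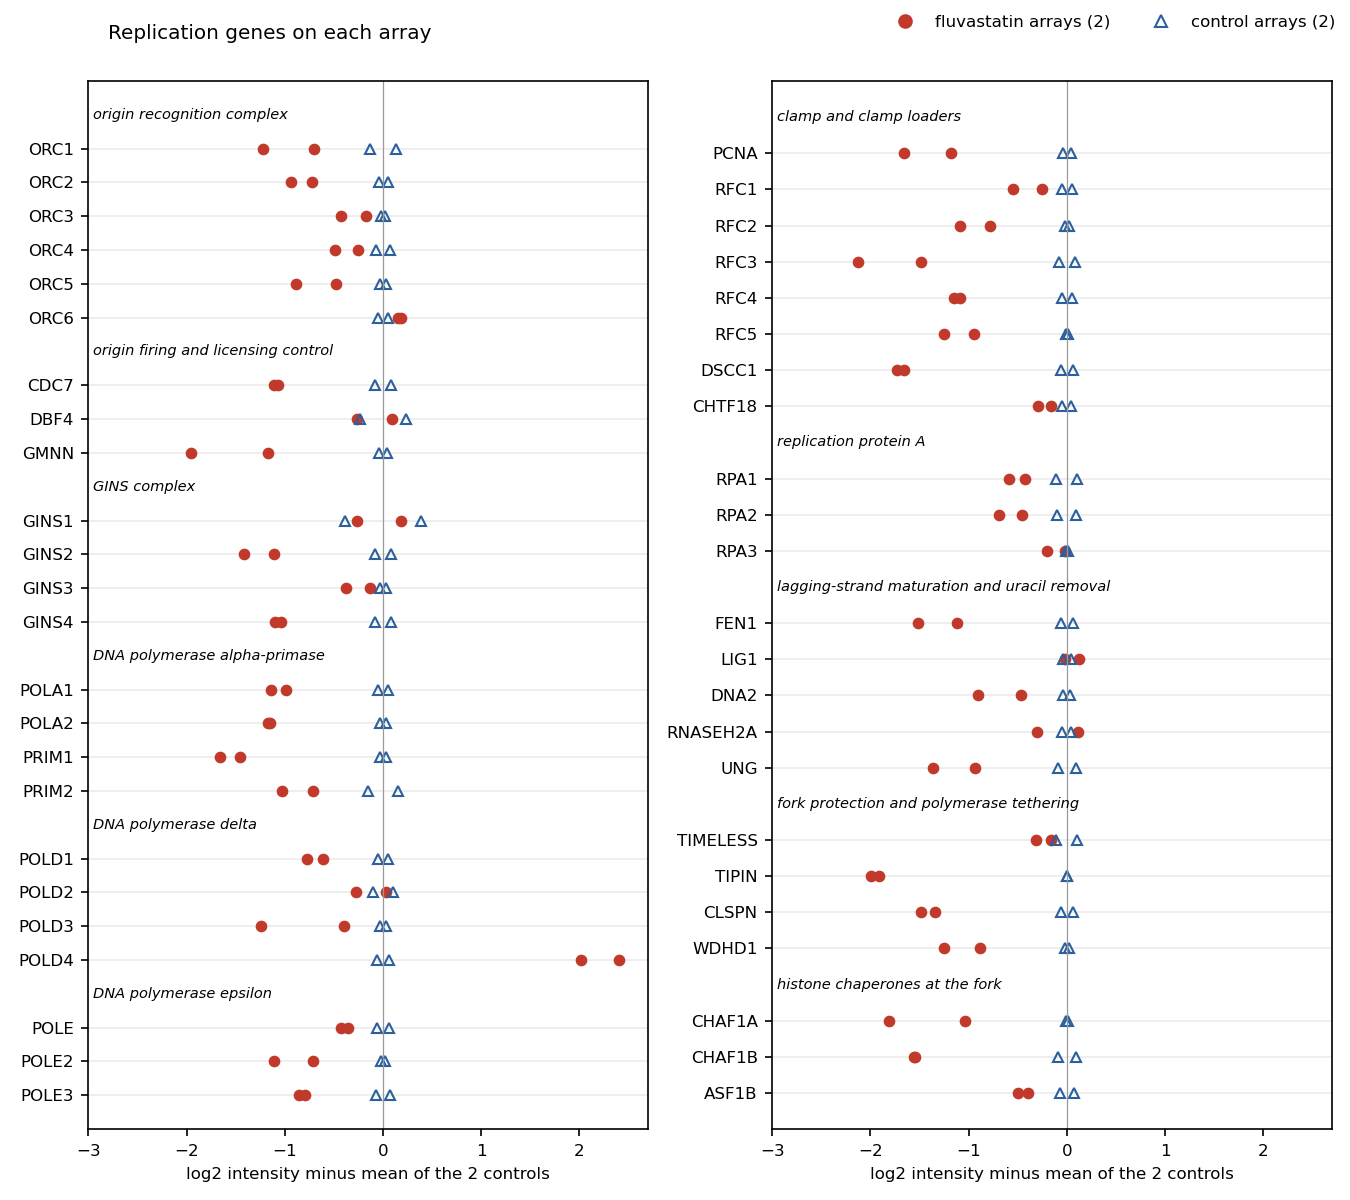
Log2 intensity of each replication gene on the 2 fluvastatin arrays (filled circles) and the 2 control arrays (open triangles), as the difference from the mean of the controls, grouped by role. In 40 of 47 genes both circles lie left of both triangles, TIPIN and RFC3 reach farthest left, and POLD4 alone lies far to the right.

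Promoter sequences were examined after the falls were known, since E2F sites are a known feature of replication gene promoters, and every motif searched is given here. RefSeq windows of GRCh38.p14, from 250 bases before to 50 after each gene start, were matched by symbol for 41 of the 47 genes (52 windows, since some genes have several starts). DNA2, DSCC1, GINS4, POLD3, RPA2 and RPA3 are not in the table. The E2F words TTTCCCGC, TTTCGCGC, TTTGCCGC and TTTGGCGC were searched on both strands. A word was found in 16 of 52 windows (30.8%), against 3.31% of all 35116 windows. By gene, 16 of 41 had one (39.0%), against 6.60% of 9658 measured genes with a window. Median GC content was 65.7% in the windows of the replication genes, 64.7% in those of all measured genes and 58.7% in all 35116 windows.

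The same words without their first T, which every E2F word therefore contains, were found in 28 of 41 genes (68.3%), against 24.4% of measured genes. The letters CCAAT were in 24 of 41 (58.5%, against 43.7%), the cell cycle homology element TTTGAA in 4 (9.76%, against 14.1%) and the consensus word of NRF1 in 1 (2.44%, against 2.68%). All were searched on both strands. Among genes with a window, an E2F word was present in 11 of 24 that fell and in 5 of 17 others, and the shorter word in 20 of 24 and 8 of 17. The split ran the other way for CCAAT (12 of 24 and 12 of 17), and was 2 of 24 and 2 of 17 for TTTGAA and 0 of 24 and 1 of 17 for NRF1. The median log2 fold change was -1.12 in the genes with an E2F word and -0.70 in those without it. It was -1.08 with the shorter word and -0.37 without it, but -0.67 with CCAAT and -0.91 without it. For TTTGAA the medians were -0.63 with and -0.91 without, and for NRF1 0.17 (1 gene) with and -0.89 without. These matches describe letters in a window and are not measured binding sites.

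All matches but those of TIPIN, which is shown whole further on, are printed with up to 20 bases on each side. They run 5′ to 3′ on the gene's strand, with the E2F word in capitals. CDC7 has a pair. These genes fell:
RFC3 (chr13:33818074-33818121, + strand): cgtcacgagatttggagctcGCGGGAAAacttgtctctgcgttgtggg
GMNN (chr6:24775313-24775360, + strand): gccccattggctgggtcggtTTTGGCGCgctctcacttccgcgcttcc
PCNA (chr20:5126654-5126701, - strand): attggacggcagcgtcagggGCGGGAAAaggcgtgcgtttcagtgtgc
CLSPN (chr1:35769959-35770003, - strand): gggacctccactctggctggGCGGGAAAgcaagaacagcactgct
GINS2 (chr16:85688958-85689005, - strand): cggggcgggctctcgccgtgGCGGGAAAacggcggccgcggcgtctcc
POLA2 (chr11:65261889-65261936, + strand): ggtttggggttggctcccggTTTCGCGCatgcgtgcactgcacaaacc
UNG (chr12:109098089-109098136, + strand): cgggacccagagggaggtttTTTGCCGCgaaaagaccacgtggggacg
CDC7 (chr1:91501024-91501071, + strand): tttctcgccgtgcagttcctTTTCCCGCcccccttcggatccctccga
CDC7 (chr1:91501058-91501105, + strand): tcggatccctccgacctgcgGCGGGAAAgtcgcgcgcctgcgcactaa
POLA1 (chrX:24693761-24693808, + strand): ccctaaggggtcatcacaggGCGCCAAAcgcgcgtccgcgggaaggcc
POLE2 (chr14:49688195-49688239, - strand): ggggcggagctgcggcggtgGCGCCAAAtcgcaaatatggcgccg
These genes held a word and did not pass the test:
POLE (chr12:132687333-132687380, - strand): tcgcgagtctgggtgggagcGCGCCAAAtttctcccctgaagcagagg
ORC3 (chr6:87590103-87590150, + strand): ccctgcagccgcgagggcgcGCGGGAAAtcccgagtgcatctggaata
GINS3 (chr16:58392446-58392490, + strand): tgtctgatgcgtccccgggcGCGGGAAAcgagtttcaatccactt
GINS1 (chr20:25407658-25407692, + strand): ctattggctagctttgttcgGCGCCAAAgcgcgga
LIG1 (chr19:48170431-48170478, - strand): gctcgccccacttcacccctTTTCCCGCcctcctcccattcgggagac

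The 2 genes at the ends of the range, chosen after their values were seen, are shown whole upstream of the start, with E2F words and CCAAT boxes on either strand in capitals. At TIPIN, the word occurs on both strands in an overlapping pair, centred 62 and 58 bases before the gene start. The table holds another TIPIN window (upstream bases chr15:66386718-66386967), with 0 E2F words and 1 CCAAT box. At POLD4, 3 CCAAT boxes and 0 E2F words were found.
TIPIN (chr15:66356686-66356935, - strand): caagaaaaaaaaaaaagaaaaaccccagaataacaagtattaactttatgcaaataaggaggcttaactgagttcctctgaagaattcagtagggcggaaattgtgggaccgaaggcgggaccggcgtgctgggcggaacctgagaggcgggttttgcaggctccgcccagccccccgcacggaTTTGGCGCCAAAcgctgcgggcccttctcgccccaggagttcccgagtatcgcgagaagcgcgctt
POLD4 (chr11:67353547-67353796, - strand): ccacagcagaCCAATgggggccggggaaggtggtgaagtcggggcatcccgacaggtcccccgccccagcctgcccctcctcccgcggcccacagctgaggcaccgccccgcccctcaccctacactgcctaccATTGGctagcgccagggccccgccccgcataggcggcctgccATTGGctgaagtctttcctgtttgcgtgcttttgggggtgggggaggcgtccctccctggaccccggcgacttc

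**Figure D2:**
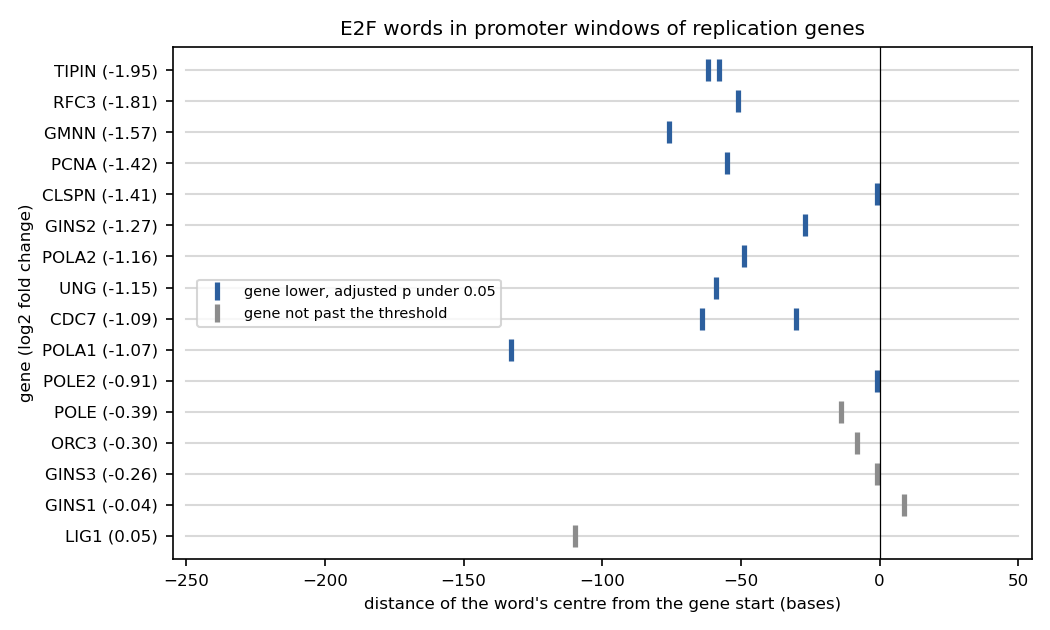
Distance, in bases, of the centre of each E2F word from the gene start for the 16 replication genes that have one, ordered by log2 fold change (in parentheses). Of 18 matches, 16 lie within 100 bases of the start; the genes that fell are blue and those that did not pass are grey.

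Within the origin recognition complex, 2 of 6 subunits fell. ORC2 had log2 intensities of 8.49 and 8.69 on the fluvastatin arrays, against 9.47 and 9.37 on the controls, a log2 fold change of -0.83 ± 0.16 (SE, adjusted p = 0.0272). The groups did not overlap. ORC1, the largest subunit, was dimmer, at 5.78 and 5.26 with fluvastatin and 6.62 and 6.35 in controls (-0.96 ± 0.23, adjusted p = 0.0430). ORC3 (-0.30), ORC4 (-0.37) and ORC5 (-0.68, adjusted p = 0.0631) did not pass. Both fluvastatin arrays were below both controls in each, as they were in 33.7% of all genes. Under median scaling ORC3 was at -0.07, ORC4 at -0.06 and ORC5 at -0.47.

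ORC6, the subunit least tightly held in the complex, gave opposite answers by probe. Its brightest probe read 14.34 and 14.37 with fluvastatin and 14.13 and 14.24 in controls (log2 fold change 0.17 ± 0.15, adjusted p = 0.473). Its other detected probe gave -1.54 (adjusted p = 0.0241), with raw intensities of 195.8 and 279.6 in fluvastatin and 536.7 and 369.5 in control arrays. No direction is therefore given for ORC6.

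Of the regulators of licensing and firing, GMNN and CDC7 fell. GMNN encodes geminin, which blocks the licensing factor CDT1 after replication has begun. It stood at 8.28 and 9.07 on the fluvastatin arrays, against 10.28 and 10.19 on the controls (-1.57 ± 0.28, adjusted p = 0.0225). Both treated arrays were low, but 0.79 apart. CDC7, the kinase that activates the loaded helicase, was at 8.03 and 7.98 with fluvastatin and 9.18 and 9.01 without (-1.09 ± 0.16, adjusted p = 0.0149). DBF4, its activating partner, read 4.92 and 5.27 in treated and 5.42 and 4.95 in control cells. Those groups overlapped near background, with detection on 3 of 4 arrays, and the fold change was -0.09 ± 0.23.

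GINS is a ring-like complex of 4 subunits that joins CDC45 and MCM to form the active helicase. GINS2 had 9.23 and 8.92 with fluvastatin, against 10.42 and 10.26 in controls (-1.27 ± 0.18, adjusted p = 0.0148). GINS4 had 5.94 and 5.88, against 7.07 and 6.90 (-1.07 ± 0.16, adjusted p = 0.0152). The gap between the groups was 1.03 for GINS2 and 0.96 for GINS4. GINS3 was at -0.26 ± 0.17 and did not pass (adjusted p = 0.321). GINS1 was detected on 2 of 4 arrays, at 4.61 and 5.07 with fluvastatin and 4.50 and 5.26 in controls, so its change (-0.04 ± 0.30) was not measurable at this signal.

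All 4 subunits of polymerase α-primase fell, with log2 fold changes from -1.56 to -0.87. PRIM1, the subunit that makes the RNA primer, read 7.93 and 7.73 on treated arrays, against 9.42 and 9.36 on controls (-1.56 ± 0.16, adjusted p = 0.00845). POLA2, the regulatory subunit, read 7.95 and 7.93, against 9.13 and 9.07 (-1.16 ± 0.15, adjusted p = 0.0127). Arrays of a group agreed closely in both genes, and the groups were far apart. The catalytic subunit POLA1 was at 8.63 and 8.47 with fluvastatin and 9.56 and 9.67 in controls (-1.07 ± 0.16, adjusted p = 0.0155). PRIM2, the other primase subunit, was at 6.04 and 6.35, against 6.91 and 7.22 (-0.87 ± 0.20, adjusted p = 0.0387), the narrowest separation of groups among the 26 falls (0.56).

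Polymerase δ, which copies the lagging strand, was split. POLD4 rose: 9.25 and 8.86 with fluvastatin, against 6.90 and 6.78 in controls (2.21 ± 0.19, adjusted p = 0.00713). It was called in all 14 other settings, with log2 fold changes of 1.76 to 2.49. POLD1 fell, with 8.54 and 8.38 on treated arrays and 9.11 and 9.20 on controls (-0.70 ± 0.16, adjusted p = 0.0391). The accessory subunit POLD2 overlapped between groups, at 10.69 and 10.38 with fluvastatin and 10.55 and 10.76 without (-0.13 ± 0.19). POLD3, which binds PCNA, was at 7.13 and 6.29, against 7.50 and 7.57 (-0.82 ± 0.29, adjusted p = 0.105). Its treated arrays lay 0.84 apart, the widest such gap among the 47 genes.

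For polymerase ε, the leading-strand enzyme, 2 of 4 measured subunits fell. POLE3, a small histone-fold subunit, had 11.30 and 11.24 with fluvastatin, against 12.17 and 12.02 in controls (-0.83 ± 0.16, adjusted p = 0.0250). POLE2 had 9.10 and 8.71, against 9.79 and 9.84 (-0.91 ± 0.19, adjusted p = 0.0310). The catalytic subunit POLE was at 8.35 and 8.28 with fluvastatin, against 8.77 and 8.65 in controls, and did not pass (-0.39 ± 0.15, adjusted p = 0.131). POLE4, the other histone-fold subunit and not among the 47 genes, overlapped between groups, at 11.72 and 11.60 with fluvastatin and 11.67 and 11.69 in controls (-0.03 ± 0.15, adjusted p = 0.920).

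The sliding clamp and its loaders had 6 falls among 8 genes. PCNA, the ring that holds the polymerases on DNA, read 9.95 and 10.42 on the fluvastatin arrays, against 11.65 and 11.57 on the controls (-1.42 ± 0.21, adjusted p = 0.0149). RFC3, a small subunit of the clamp loader, read 6.75 and 7.39, against 8.96 and 8.80 (-1.81 ± 0.25, adjusted p = 0.0135). The treated arrays differed by 0.64 in RFC3 and yet both lay far below the controls. DSCC1, part of an alternative clamp loader that acts in sister chromatid cohesion, read 7.37 and 7.44, against 9.16 and 9.04 (-1.70 ± 0.15, adjusted p = 0.00734), and was called in all 14 other settings. The small subunits RFC4 (-1.12 ± 0.15), RFC5 (-1.10 ± 0.17) and RFC2 (-0.93 ± 0.18) fell as well. RFC1, the large subunit, was at -0.40 ± 0.18 (adjusted p = 0.163), while its second probe was called lower (-0.69, adjusted p = 0.0431). CHTF18, the partner of DSCC1 in its loader, was at 7.96 and 7.84 with fluvastatin and 8.17 and 8.09 in controls (-0.23 ± 0.16, adjusted p = 0.346).

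Replication protein A coats single-stranded DNA at the fork, and 0 of its 3 subunits passed in limma, where 2 had an unadjusted p under 0.05. RPA2 had 10.76 and 10.52 on treated arrays and 11.12 and 11.32 on controls (-0.58 ± 0.17, adjusted p = 0.0744). RPA1 had 11.15 and 11.31, against 11.84 and 11.63 (-0.51 ± 0.17, adjusted p = 0.0933). RPA3 was nearly level, with 11.55 and 11.73 against 11.77 and 11.74 (-0.11 ± 0.16). Without background correction RPA1 and RPA2 were both called lower, as they were in the authors' processed values. The other probes of RPA1, detected on all 4 arrays, gave -0.21 (adjusted p = 0.411) and -0.24 (adjusted p = 0.416) as reported.

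Of the enzymes that complete the lagging strand or remove uracil, FEN1 and UNG fell. FEN1, the nuclease that trims the flap ahead of each Okazaki fragment, was at 10.71 and 10.31 with fluvastatin, against 11.76 and 11.89 in controls (-1.32 ± 0.19, adjusted p = 0.0152). UNG, a uracil-DNA glycosylase, was at 8.75 and 8.32, against 9.60 and 9.78 (-1.15 ± 0.20, adjusted p = 0.0220). LIG1, the ligase that seals the fragments, overlapped between groups, with 8.54 and 8.39 in treated and 8.45 and 8.37 in control cells (0.05 ± 0.16, adjusted p = 0.839). RNASEH2A, the catalytic subunit of the RNase H2 that removes RNA from DNA, also overlapped (-0.10 ± 0.19). DNA2, a nuclease for long flaps, was at -0.68 ± 0.20 (adjusted p = 0.0684), while its second probe was called lower (-0.83).

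Of the factors that protect the fork or tether polymerase to it, 3 of 4 fell. TIPIN read 6.82 and 6.90 with fluvastatin, against 8.81 on both controls (-1.95 ± 0.15, adjusted p = 0.00713). Its partner TIMELESS read 9.09 and 8.94, against 9.36 and 9.15 (-0.24 ± 0.17, adjusted p = 0.364). The 2 proteins work as a pair, and the difference between their fold changes was not tested. CLSPN, or claspin, which relays the fork signal from ATR to CHK1, read 5.33 and 5.18, against 6.73 and 6.60 (-1.41 ± 0.16, adjusted p = 0.00964). WDHD1, which links polymerase α to the helicase, fell by 1.07 on the log2 scale (adjusted p = 0.0212).

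Chromatin assembly factor 1 places new histones behind the fork, and 2 of its 3 measured subunits fell. The third, RBBP4, which other chromatin complexes share, was at -0.59 ± 0.16 (adjusted p = 0.0547). CHAF1B was at 8.09 and 8.11 on treated arrays, against 9.74 and 9.56 on controls (-1.55 ± 0.16, adjusted p = 0.00842). CHAF1A was at 6.27 and 7.05, against 8.10 and 8.07 (-1.43 ± 0.27, adjusted p = 0.0260). The treated arrays were close together for CHAF1B and 0.78 apart for CHAF1A. ASF1B, which hands histones to this complex, was at 9.11 and 9.01, against 9.58 and 9.43, and did not pass (-0.44 ± 0.16, adjusted p = 0.107).

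More than 1 detected probe was available for 15 of the 47 genes. All detected probes of a gene had the same sign in 13 of them, with ORC6 and UNG as the exceptions. Of the 9 fallen genes in this group, every detected probe was called lower in 4 (PRIM1, RFC3, RFC4 and FEN1). The dimmest RFC3 probe (-0.99) was detected on 2 of 4 arrays only. Its raw intensities were 69.8 and 78.4 in fluvastatin and 91.9 and 91.5 in control arrays. The filter kept it on its control signal, so its call is not separate support. In PCNA, POLA1, RFC2, UNG and WDHD1 at least 1 dimmer probe did not pass. The other probes of UNG gave 0.09 (adjusted p = 0.843) and -0.68 (adjusted p = 0.0705). The second probe of POLA1 gave -0.29 (adjusted p = 0.378). Those of PCNA gave -0.99 and -0.74. The PCNA probe at -0.74 and the UNG probe at -0.68 were also detected on 2 of 4 arrays only. Raw intensities of that PCNA probe were 69.2 and 80.4 in fluvastatin and 83.8 and 88.2 in control arrays. Probes this dim are not separate support, although PCNA and RFC3 are counted among the 13 genes above.

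**Figure D3:**
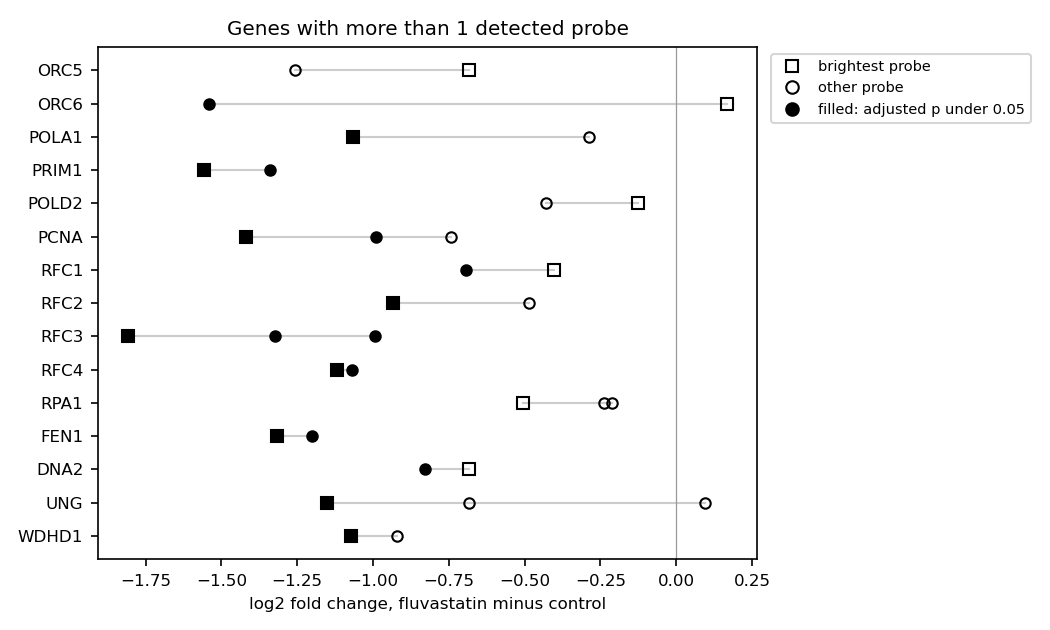
Log2 fold change, fluvastatin minus control, of every detected probe for the 15 replication genes with more than 1; squares are the brightest probe, circles the others, and filled symbols have an adjusted p under 0.05. All probes of RFC3 lie left of zero and are filled, while those of ORC6 lie on both sides.

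Related genes outside the 47 were read from lists chosen by function. That choice was made with earlier results of these data known, including a fall of replication genes. Of 16 genes of the MCM helicase and origin licensing, 13 fell and the median log2 fold change was -1.12, with MCM10 at 7.29 and 7.37 in fluvastatin and 9.99 on both control arrays (-2.66 ± 0.15). MCM3, a helicase subunit, was at -1.58 ± 0.15. Of 12 measured polymerases and helicases of translesion synthesis, repair and mitochondria, 2 fell and 1 rose, with a median of -0.20. Over all genes, 9.65% were called lower, 10.5% higher and 20.1% either way. Those shares are the background for this count and for the lists that follow. A count near them shows nothing particular to its list. The mitochondrial helicase TWNK (-1.46 ± 0.15, adjusted p = 0.00851) and POLQ, the polymerase of end joining by short homology (-0.72 ± 0.16), fell. POLL, a repair polymerase, rose by 0.99 ± 0.19 (adjusted p = 0.0247).

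Other subunits of the same complexes and related loaders were tested in limma with 0 of 12 called and 4 with an unadjusted p under 0.05. They include RBBP4 and POLE4, given above. Of 8 measured checkpoint genes 2 fell, CDC25A (-2.26 ± 0.19), a phosphatase that activates cyclin-dependent kinases, and WEE1 (-0.69 ± 0.15), a kinase that restrains them. Of 13 genes of nucleosome assembly 3 fell: MMS22L (-1.55 ± 0.17), which acts at stalled forks, HAT1 (-1.22 ± 0.29), which acetylates new histone H4, and the histone chaperone NASP (-0.84 ± 0.21), named after its value was seen.

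Among 17 measured E2F and pocket protein genes, 7 fell and 2 rose. E2F2, an activating E2F, had 7.54 and 7.14 with fluvastatin, against 8.85 and 8.82 in controls (-1.50 ± 0.19, adjusted p = 0.0118). E2F8, an atypical repressor, was at -1.13 ± 0.18 (adjusted p = 0.0188). E2F7, the other atypical repressor, was at 0.62 ± 0.16 and did not pass (adjusted p = 0.0535). The activator E2F1 overlapped between groups (-0.13 ± 0.41, adjusted p = 0.846). E2F7 and E2F1 were named after their values were seen. The genes that rose were RBL2, a pocket protein of quiescent cells (0.88 ± 0.21, adjusted p = 0.0419), and LIN37, a subunit of the DREAM repressor complex (0.73 ± 0.18, adjusted p = 0.0456). Other genes of that complex went the other way. LIN9 (-0.80 ± 0.15, adjusted p = 0.0263), E2F4 (-0.83 ± 0.15, adjusted p = 0.0232) and TFDP1 (-0.95 ± 0.21, adjusted p = 0.0370) fell. LIN54 (-0.65) and LIN52 (-0.46) were lower and did not pass. These genes too were named after their values were seen. Genes of non-homologous end joining had 0 of 7 called in limma, 1 with an unadjusted p under 0.05, and a median of -0.30. A list of 8 genes held other ligases and topoisomerases and also XRCC1, the scaffold of base excision repair, which is neither. In it TOP3A (-0.87 ± 0.15) and TOP2A (-0.76 ± 0.16) fell and XRCC1 rose (0.67 ± 0.16, adjusted p = 0.0421).

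**Figure D4:**
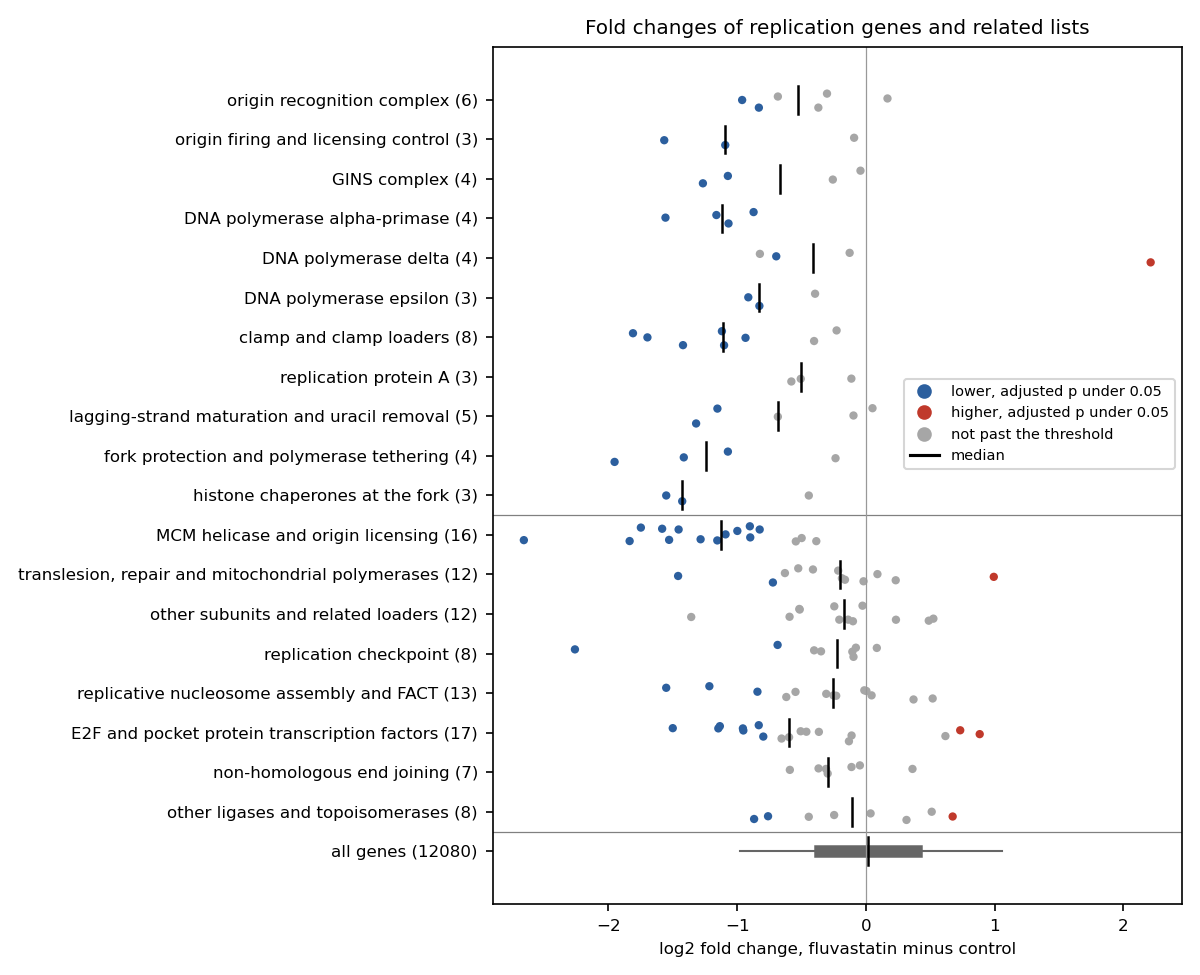
Log2 fold change, fluvastatin minus control, of each measured gene by list, with the 47 replication genes above the first line and related lists below it; black bars are medians, and the lowest row gives the median, quartiles (thick) and 5th to 95th percentiles (thin) of all 12080 genes. All 4 genes of polymerase α-primase are blue (called lower), 0 of 3 genes of replication protein A are, and POLD4 stands apart on the right.

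**Figure D5:**
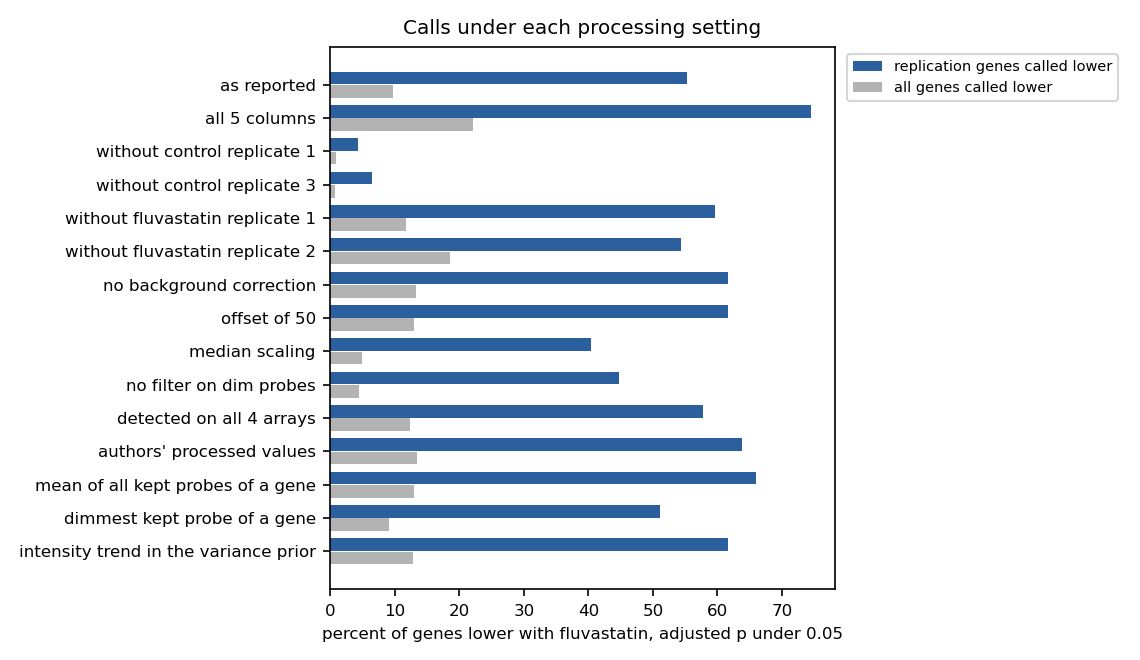
Percent of genes called lower (adjusted p under 0.05) under each processing setting, for the replication genes (blue) and for all genes (grey). As reported, 55.3% of the replication genes and 9.65% of all genes are called, and both shares drop when either control array is left out.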

How the data were processed

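The authors deposited a table of raw bead intensities for 47231 probes and, beside each intensity, its detection p-value (per the file headers), and a table of processed log2 values whose package is not given in the sources used here (R 3.1.0, per the submitters' processing notes). Groups come from the sample titles. Control column 2 equalled the mean of control columns 1 and 3 to within 1e-06 in all probes and was left out.

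Starting from raw intensities, limma 3.58.1 (R 4.3.3) ran neqc: background from the detection p-values, normexp, an offset of 16, quantile normalization, log2. The offset compresses changes of dim probes. The filter kept 21986 probes, those whose detection p was below 0.05 on 2 or more of 4 arrays. A two-sided limma test (lmFit, eBayes) compared the groups, and Benjamini-Hochberg adjustment covered every probe kept (2 residual and 3.72 prior degrees of freedom). Errors are moderated standard errors. The number of arrays limits the precision. Symbols came from the platform annotation (30113 probes with 1 symbol, 16542 of them kept, 0 changed by the RefSeq table).

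Within each role the 2 genes with the smallest p and the 1 with the largest are given by array, always with PCNA, ORC1, POLA1, POLD1, POLE and GINS1. The genes and lists were chosen with earlier results of these data known, and those results already included a fall of replication genes. The promoter search was added after the results were known. The fit was tested on simulated data. With noise drawn from the raw variances the first draw made no calls and further draws found some of the large changes and almost none of the small ones. That noise model was replaced, and the pass limits set, after the first draw was seen. With the moderated spread most changes were recovered and false calls were above the nominal rate, so adjusted p-values near 0.05 are less certain than they read. The 14 alternatives are given in the closing section.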

Additional observations from a re-analysis of the deposited data

How the results depend on the processing

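The counts of called genes depend mainly on which arrays enter the fit. Leaving out 1 array in turn gave 256 to 7238 called probes (3722 as reported), 3 to 29 called replication genes (27), 2 to 28 falls (26) and 2 to 22 falls of at least 2-fold (19). The lowest counts came without a control array, where the lone control is assumed to vary like the fluvastatin arrays. With all 5 columns, where control column 2 enters as though independent, 8927 probes were called. Median scaling gave 11 falls of at least 2-fold. There were 14 without background correction, 14 in the authors' processed values and 15 with an offset of 50. The median log2 fold change of the replication genes was -0.60 under median scaling, -0.65 when the offset was 50, -0.63 when background was not corrected and -0.63 in the authors' processed values, against -0.83 as reported. ORC6 reversed, to -0.69 with the mean of its probes and -1.54 with its dimmest detected probe. Apart from the fits without a control array, the number of falls lay between 19 and 35. A called fall passed in at least 9 of the 14 settings. No paired analysis was possible because the independent arrays of the groups compared share 1 replicate number only. With 2 arrays a group and dim probes near background (DBF4, GINS1), small changes were not measurable.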
